A study of Drosophila melanogaster with 4 samples.

Results

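The 7 genes hb, Kr, nub, pdm2, cas, grh and svp encode the temporal transcription factors of embryonic neuroblasts, the dividing stem cells of the fly nervous system. They were taken by symbol from the dm6 annotation, and all 7 were found among the 13945 protein-coding genes of the main chromosome arms. Each gene was given a window, its body extended by 5000 bp at either end, and every peak summit in that window. Chromatin was precipitated with an anti-GFP antibody from whole Drosophila melanogaster embryos aged 6 to 24 h, of a transgenic line that stably expresses exex with GFP fused to its C-terminus. exex is the fly HB9 gene, whose homeodomain protein acts in motor neurons and other neurons. The 4 libraries were biological replicates of this 1 group, and no second condition was given. The promoter that drives the fusion is not given in the sources used here. Peaks came from all cells of the embryo, so occupancy in more cells and stronger occupancy per cell cannot be told apart, and no peak can be assigned to neuroblasts.

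Neuroblasts express these factors one after another, and the factor present at a division sets the kind of neuron or glial cell that is born. In most embryonic lineages hb comes before Kr, which is followed by nub and pdm2 together, then cas and grh. svp, an orphan nuclear receptor of the COUP-TF family, switches off hb so that the series can move on. hb, Kr and cas encode zinc finger proteins, nub and pdm2 are neighbouring paralogues with a POU domain and a homeodomain, and grh encodes the founding member of the Grainyhead family. Several also act elsewhere: hb and Kr are gap genes of the early embryo, and grh acts in the epidermis.

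Of the 7 genes, nub and grh had a summit in the authors' list filtered by irreproducible discovery rate (IDR), and hb, Kr, pdm2, cas and svp had none. nub stood out within the group, with 5 of the 7 IDR summits and a peak that ranked 31 by signal among 7909. Of all protein-coding genes, 55.4% had an IDR summit by the same rule. Of the genes whose window was at least as long as that of cas, the shortest of the 7 at 13.8 kb, 65.4% had one. Of those with a window at least as long as that of pdm2, 39.1 kb, 65.7% had one, and of the 4 temporal factor genes of that length nub and grh did. The median number of IDR summits was 0 over the 7 genes and 1 over all genes. The count of 2 in 7 lay below these shares, but 7 genes are few, and their number was not tested. With the gene body alone, without the extension, nub and grh again had a summit, and then the count lay above the share of all genes, 18.1%. That share is over genes of any length, while the bodies of nub and grh span 40511 and 41689 bp. No body-only share was computed for genes of like length, so the 2 settings cannot be compared in this respect.

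**Figure D1:**
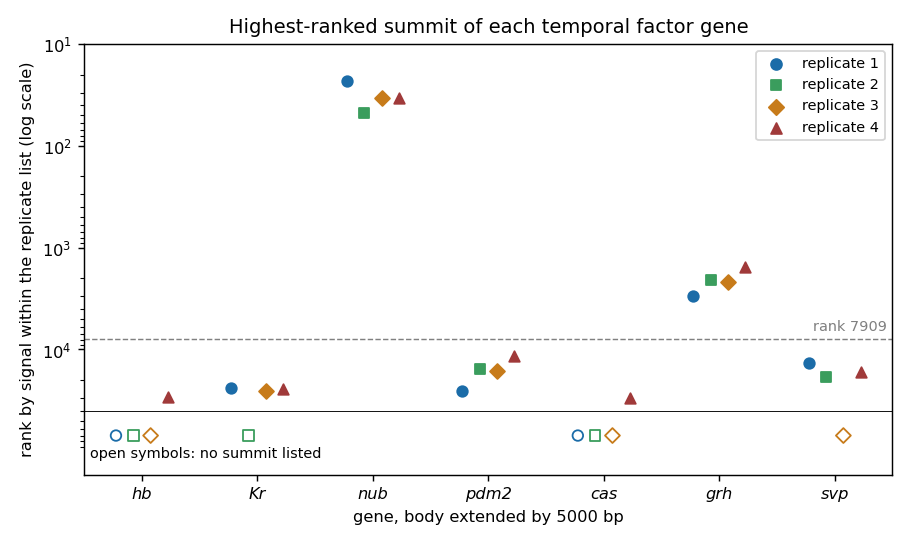
Rank by signal (log scale, 1 is the strongest) of the highest-ranked summit in the body or within 5000 bp of each gene, in each of the 4 replicate lists of 30000 peaks. Filled symbols are listed summits, open symbols mark lists with no summit, and the dashed line is rank 7909. nub ranked between 23 and 48 and grh between 1545 and 2963, while no replicate placed any of the other genes above the line.

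nub (FBgn0085424, chromosome 2L, 12587625 to 12628135, plus strand, dm6) spans 40511 bp and has 3 annotated transcription start sites (TSSs). Its protein acts in neuroblasts of the middle of the series, and in other tissues such as the wing. The strongest peak had its summit at 12593622, in an intron 5997 bp downstream of the first TSS. Its signal, the authors' score per peak, was 4015 in the pooled list. It ranked 23, 48, 34 and 34 in replicates 1 to 4, and the replicate summits lay 18, 3, 2 and 17 bp from the IDR summit. All 4 libraries therefore placed it near the top of a list of 30000. With the limit set at the rank of this peak itself, 72 protein-coding genes of any length, or 0.516%, had an IDR summit in their window. This share restates the rank and is no separate measure of rarity.

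The next nub peak had its summit at 12620749, an intronic position 1966 bp downstream of the TSS at 12618783, which starts a shorter transcript. Its pooled signal was 1228, and it ranked 868 in the IDR list and 586, 1484, 641 and 2057 in replicates 1 to 4. This position also lies in the body of Ref2, an RNA export factor gene on the opposite strand (12610517 to 12646356). The other 3 IDR summits lay within 2544 bp downstream of the first TSS. The summit at 12590169 ranked 2353 in the IDR list and 2501, 2822, 1380 and 4898 in the replicates. That at 12588618, in the promoter by a limit of 1000 bp, ranked 4104, and 2149, 5379, 5020 and 13167 in the replicates. In replicate 4 its q-value was above 0.01. The summit at 12589378 was the weakest of the 5, with rank 6097, and 6590, 4280, 8143 and 5494 in the replicates.

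Sequences of 201 bases around the 3 strongest nub summits and the strongest pdm2 summit show what the peaks of the paralogues hold. They are from the plus strand of the dm6 genome (RefSeq), with capitals at TAATTA, a core site of homeodomains of the exex type, and at CTTATC or its reverse complement GATAAG, which holds a GATA core.
nub, chr2L:12593522-12593722, rank 31: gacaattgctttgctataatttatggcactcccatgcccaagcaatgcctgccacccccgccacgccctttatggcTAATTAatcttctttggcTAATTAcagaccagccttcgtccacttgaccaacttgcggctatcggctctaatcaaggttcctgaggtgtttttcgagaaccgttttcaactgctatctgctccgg
nub, chr2L:12620649-12620849, rank 868: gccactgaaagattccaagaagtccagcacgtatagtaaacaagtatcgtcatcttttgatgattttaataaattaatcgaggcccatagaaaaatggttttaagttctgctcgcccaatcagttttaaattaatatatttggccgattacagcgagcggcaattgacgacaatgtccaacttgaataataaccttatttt
nub, chr2L:12590069-12590269, rank 2353: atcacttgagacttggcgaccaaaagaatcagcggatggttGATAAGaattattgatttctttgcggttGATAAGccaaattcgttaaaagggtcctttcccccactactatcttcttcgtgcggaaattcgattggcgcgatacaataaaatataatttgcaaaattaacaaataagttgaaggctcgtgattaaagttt
pdm2, chr2L:12658592-12658792, not in the IDR list: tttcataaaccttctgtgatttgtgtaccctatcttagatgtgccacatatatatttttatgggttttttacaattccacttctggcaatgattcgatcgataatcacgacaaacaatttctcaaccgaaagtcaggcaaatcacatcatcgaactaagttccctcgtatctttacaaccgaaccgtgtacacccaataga

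The strongest nub summit held 2 copies of TAATTA, which began 24 and 6 bp before the summit and 18 bp apart. TAATTA at 2 or more places within 100 bp, at any spacing, was found at 2.66% of all IDR summits. The summit of rank 2353 held CTTATC at 2 places and no TAATTA, and the summit of rank 868 held neither sequence. GC content was 48.8% around the strongest summit and 35.3% and 36.8% around the other nub sequences shown, against a median of 38.8% around all IDR summits. The nub summit of rank 6097, not shown, held 1 TAATTA beginning 17 bp before it.

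pdm2 (FBgn0004394, 2L, 12657165 to 12686306) starts 29.0 kb past the end of nub on the same strand. It had no IDR summit, and none of its summits in any replicate had a q-value under 0.01. The pooled list held 3 pdm2 summits, with signals of 90.99, 51.59 and 56.91. The highest, at 12658692, lay 868 bp downstream of a pdm2 TSS, ranked 17199 and had q = 0.0581. The best pdm2 summit of each replicate ranked 25500, 15507, 16395 and 11529 in replicates 1 to 4, with q of 0.172, 0.0341, 0.0269 and 0.118. These were not all at 1 site: they lay at 12676504, 12658745, 12658814 and 12659216. In every replicate the best nub summit therefore ranked far above the best pdm2 summit. The nub window held 10 pooled summits with q under 0.01 and 16 in all. Between the end of nub and the start of pdm2 lay 4 more IDR summits, all in introns of Ref2, with ranks of 1105, 1805, 5508 and 7615. The nearest to nub lay 6041 bp past its end and the nearest to pdm2 lay 12534 bp before its start, so neither window included them.

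**Figure D2:**
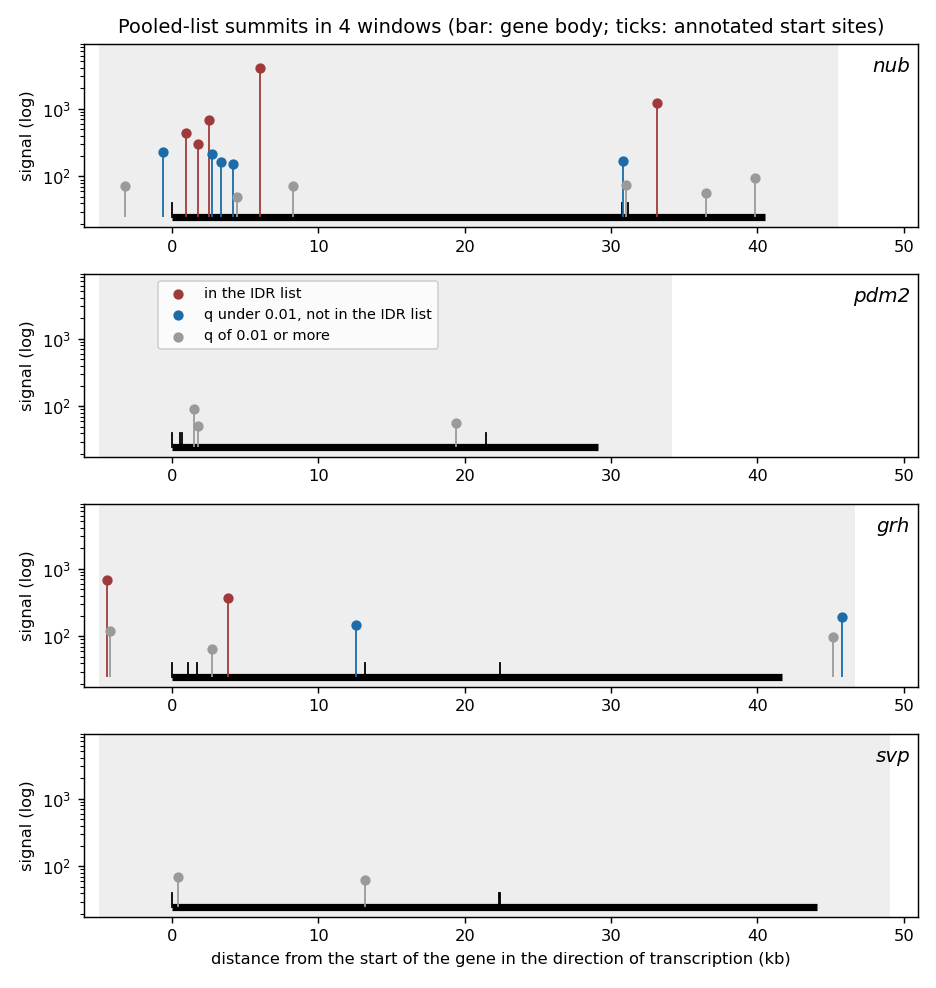
Signal of each pooled-list summit (log scale) against its distance from the gene start in kb, for nub, pdm2, grh and svp. Grey shading is the window, the black bar the gene body and the ticks annotated TSSs. Red marks IDR summits, blue other summits with q under 0.01 and grey the rest, and only nub and grh have red or blue points.

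The pooled nub summits with q under 0.01 lay in 2 groups, around the upstream TSS and around the downstream pair of TSSs. The pooled summit just outside the IDR list, at rank 8030 with a signal of 226.1, lay 629 bp upstream of the first TSS. The lowest IDR peak had a signal of 230.2. The nearest overlapping replicate summits ranked 5052, 27482, 12151 and 6209 in replicates 1 to 4, a far wider spread than that of the strongest peak. They lay 93, 160, 161 and 3 bp from that upstream summit, so the ranks may not all belong to 1 site. A further summit at 12618463, of rank 10220, lay 118 bp from the TSS at 12618345. No pooled nub summit with q under 0.01 lay between 5997 and 30838 bp from the gene start.

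grh (FBgn0259211, chromosome 2R, 17801132 to 17842820, plus strand) encodes a factor of late neuroblasts and of the epidermis. It had 2 IDR summits. The stronger, at 17796717, had a pooled signal of 689.8 and rank 2302. By the nearest replicate summit it ranked 4964, 2075, 2157 and 2853 in replicates 1 to 4. In replicates 1 and 4 another summit overlapping this peak ranked higher, 2963 at 17796493 and 1545 at 17796554. The best position therefore differed between replicates. The IDR summit lay 4415 bp upstream of grh, in an intron of Dhit, a gene for a regulator of G protein signalling whose TSS was 3847 bp away. This was the IDR summit of the 7 genes closest to the edge of a window, and the nearest one outside a grh edge lay 6279 bp past the end, in an intron of the calcium channel gene Orai. The other grh summit, at 17804956, lay in a grh intron 2089 bp downstream of a TSS, with a signal of 363. It ranked 5046, and 6456, 4227, 5990 and 5912 in the replicates, and held 1 TAATTA that began 31 bp before it. Neither grh summit held CTTATC within 100 bp.

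The pooled list held 7 grh summits, of which 4 had q under 0.01. Those outside the IDR list lay at 17813710, in the promoter of a downstream grh TSS 634 bp away, and at 17846900, which was 201 bp from the TSS of olf186-M and so nearer to that gene. They ranked 11482 and 9133. With q under 0.01 the replicate lists held 4, 4, 5 and 3 grh summits, against 7, 9, 11 and 5 nub summits. The means were 4 ± 0.816 for grh and 8 ± 2.58 for nub (SD, n = 4).

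**Figure D3:**
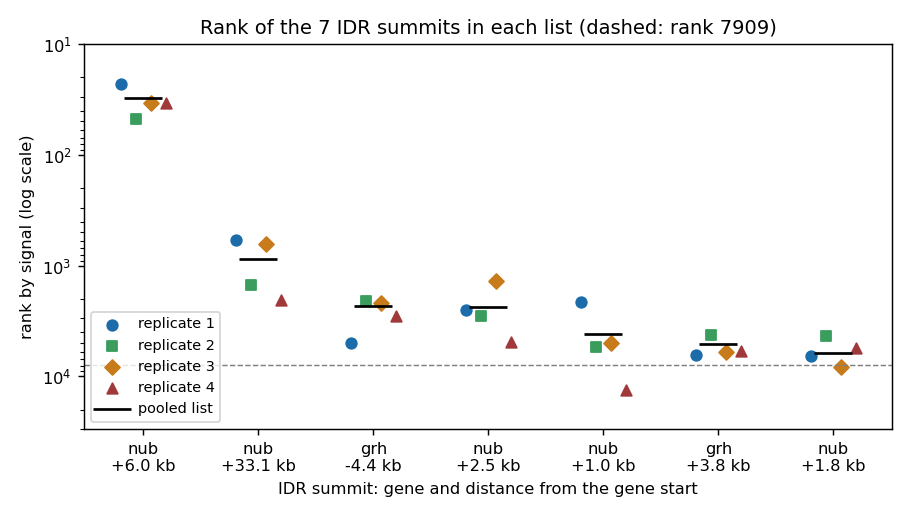
Rank by signal (log scale) of the 7 IDR summits at nub and grh, ordered by their rank in the pooled list (black bars), with the rank of the nearest overlapping peak in each replicate as coloured symbols. The strongest nub summit keeps a rank between 23 and 48, and the widest spread is that of the nub summit 1.0 kb from the gene start, from 2149 to 13167.

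All 7 IDR peaks were overlapped by a peak in each complete replicate list. Among the 7909 highest-signal peaks of replicates 1 to 4, 7, 7, 6 and 6 of them were overlapped, a mean of 92.9% ± 8.25 (SD, n = 4). The IDR list was made from these replicates, so this is no independent measure. The share of all 7909 IDR peaks overlapped in this way is not given here, so the mean cannot be read as particular to nub and grh.

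hb (FBgn0001180, 3R, 8690980 to 8697822), the earliest factor of the series, had no summit in the pooled list or in replicates 1 to 3. Its single summit in replicate 4 ranked 29515 of 30000, with q = 0.744. The IDR summit nearest to hb lay 14029 bp before its start and ranked 5352. cas (FBgn0004878, 3R, 5712975 to 5716805), which follows nub and pdm2, gave the same picture. It had 1 summit, in replicate 4, of rank 29868 and q = 0.752, and the nearest IDR summit lay 16577 bp before its start, in the promoter of CG1239.

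Kr (FBgn0001325, 2R, 25226611 to 25231394) lies within the body of CG9380 on the opposite strand. It had 1 summit each in replicates 1, 3 and 4, ranked 23913, 25640 and 24236, and none in replicate 2 or the pooled list. Their q-values were 0.141, 0.161 and 0.606. They were not all at 1 site. Those of replicates 1 and 3 lay at 25233277 and 25233211, past the end of Kr, and that of replicate 4 at 25227148, in the gene body. The nearest IDR summit lay 37862 bp before the start of Kr, at the promoter of CG9380. Kr, hb and cas have short windows of 14.8, 16.8 and 13.8 kb.

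svp (FBgn0003651, 3R, 12258737 to 12302785) had the longest window, 54 kb, and no IDR summit nearer than 37090 bp. The pooled list held 2 svp summits, at ranks 22065 and 23894. The first lay 408 bp downstream of the svp start, which is also the start of CG44037. The svp window held 7, 1, 0 and 10 summits in replicates 1 to 4, none with q under 0.01. The lowest q was 0.0142, in replicate 1 at rank 13632. The 4 genes with long windows, nub, pdm2, grh and svp, thus had 5, 0, 2 and 0 IDR summits.

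**Figure D4:**
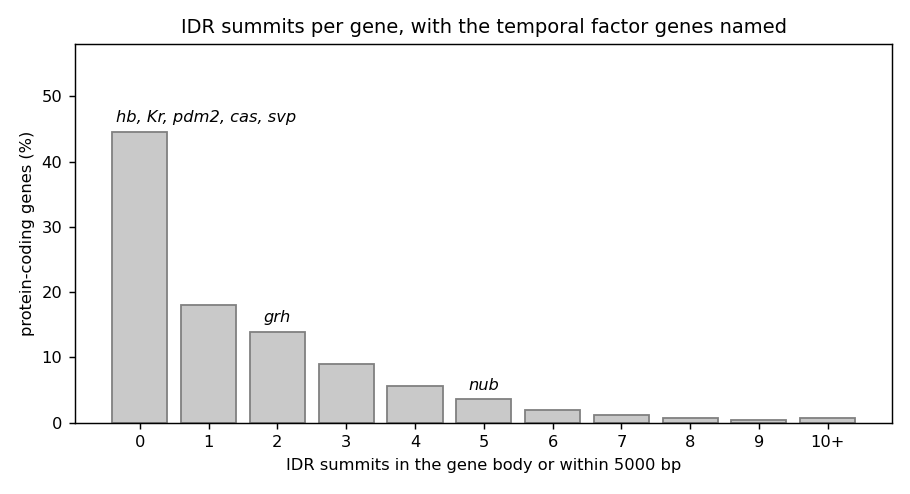
Share of the 13945 protein-coding genes of any length (%) by the number of IDR summits in the body or within 5000 bp, with the 7 temporal factor genes named above their bars. Of all genes 44.6% had no summit, as did hb, Kr, pdm2, cas and svp, 13.9% had 2 like grh and 3.58% had 5 like nub.

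A count of 5 or more IDR summits, as at nub, was found at 8.79% of all genes, whatever their length. The nub window spans 50.5 kb, and only 690 of the 13945 genes had a window of at least 39.1 kb. The share with 5 or more summits was not computed for genes of like length. How unusual the nub count is for so long a gene was therefore not tested. Any summit in the pooled list was present at 4 of the 7 genes, which added pdm2 and svp, and at 75.1% of all genes. With q under 0.01 the count was 2 of 7, again nub and grh, against 63.2% of all genes. In the complete lists of replicates 1 to 4 a summit was present at 5, 4, 4 and 7 of the 7 genes. The background of those lists was 76.9%, 74.0%, 75.4% and 89.8% of all genes. With q under 0.01 it was 2 of 7 in each replicate, nub and grh in every case, against 64.5%, 60.2%, 65.2% and 57.2%. In replicate 4, 23.2% of listed peaks had q under 0.01, against 39.6% to 46.2% in the others, and each list was filled to 30000. None of the summits of hb, Kr, pdm2, cas and svp in replicate 4 had a q-value under that limit.

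TAATTA was present in the windows of all 7 genes, also where no summit was found. It occurred 56, 29, 33 and 50 times in the windows of nub, pdm2, grh and svp, and 8, 13 and 4 times in those of hb, Kr and cas. Per 10 kb this was 11.1 for nub, 7.41 for pdm2, 6.38 for grh and 9.25 for svp, against 7.29 over the main arms. For hb, Kr and cas it was 4.75, 8.79 and 2.89. Of the 193 sites in the 7 windows 4 lay within 100 bp of an IDR summit, or 2.07%, against 1.88% of all such sites on the main arms. CTTATC, on either strand, occurred 118 times in the windows, with 2 of these sites near an IDR summit (1.69%, against 6.13% on the main arms). Of the 7 IDR summits 3 had TAATTA within 100 bp, where 19.7% of all IDR summits had it, and 1 had CTTATC, where 35.4% did. Within 200 bp, 4 had CTTATC, where 49.7% of all IDR summits did, so the count lay below the share of all summits in the narrower window and above it in the wider one. With 7 summits these counts are a description and were not tested.

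Other genes of temporal patterning were counted alike in 3 lists, and 30 of their 31 symbols matched. An IDR summit was found at 11 of the 30, or 36.7%, beside 55.4% of all genes. Of 9 genes of late embryonic neuroblasts and their thoracic progeny 3 had one. These were sqz, a zinc finger gene acting after cas (rank 2201), dimm, a regulator of neuropeptide cells (6122), and kn, a gene of the EBF family (6819). All of these summits lay outside the gene body, those at sqz and kn in promoters of CG42359 and BEAF-32. Of 13 matched genes of the series in larval medulla neuroblasts 2 had one, the homeobox gene hth (rank 436, with 9 summits in a window of 142 kb) and slp2 (3878). The slp2 summit was intergenic, 4353 bp from the slp2 TSS.

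Of 8 genes listed as late larval temporal genes 6 had an IDR summit, beside 55.4% of all genes and 65.7% of genes with a window of at least the length of that of pdm2. The highest-ranked were those of chinmo, a BTB zinc finger gene of early-born neurons (rank 729), the ecdysone receptor gene EcR (2039), and mamo, another BTB zinc finger gene (3389). The highest-ranked chinmo summit lay outside its body, in a 3' UTR of CG17660, while those of EcR and mamo were intronic. Of the 8 IDR summits of chinmo, 3 lay inside its body. Among the other genes of this list, Syp and lin-28 had no IDR summit. At Eip93F, named after its values were seen, the only IDR summit lay outside the body, in the promoter of Idh3b. Late larval genes include some of the longest windows, 154 kb at mamo and 99.7 kb at br, so their counts cannot be set beside those of short genes such as hb and cas.

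**Figure D5:**
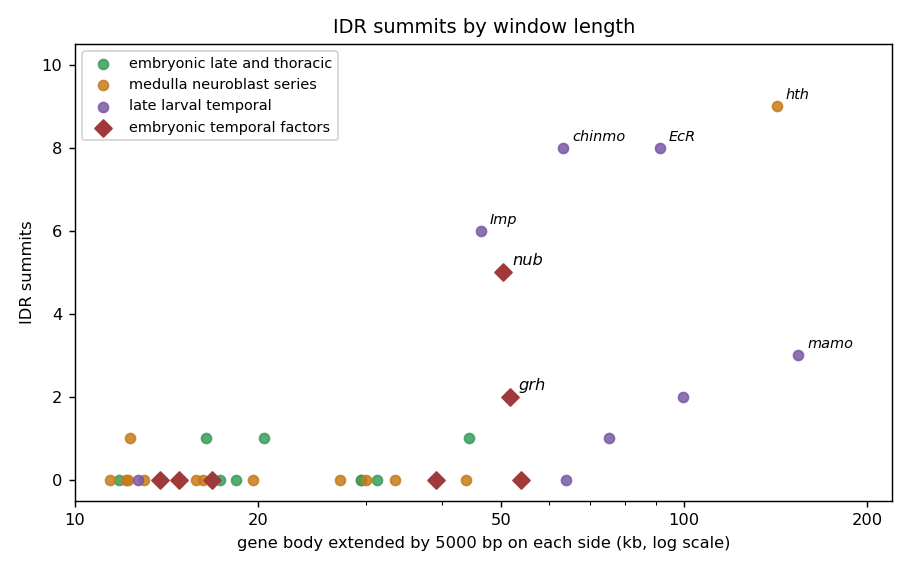
Number of IDR summits against window length in kb (log scale) for the 7 embryonic temporal factor genes (red diamonds) and 30 other temporal patterning genes (circles, coloured by list). nub has 5 summits in 50.5 kb and grh 2 in 51.7 kb, while svp has 0 in 54 kb. hth has the most, 9 in 142 kb.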

How the data were processed

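ChIP-seq peak lists of 4 biological replicates of exex-GFP embryos were analysed, with fragments of 200 to 800 bp per the labels. Per the deposited file lists, each replicate list and the pooled list came from dm6 alignments plus 1 shared further input, and the IDR list was derived from those 5 lists. The aligner, caller and IDR threshold were not given in the sources used here. Read depth is unknown. Each peak carries a deposited signal value, a score whose scale is not stated, which served to order peaks inside 1 list. Its deposited q-value is a −log10 value, read with a limit of q under 0.01.

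The members and gene lists were chosen with earlier results of these data known. Named were all 7 genes, the genes that host or start near their IDR summits, and up to 3 genes per other list by signal. Genes that lie near other summits were named after the values were seen. One listed symbol, Oaz, matched no annotated gene. Genes and TSSs came from Ensembl release 115 (BDGP6.54) and sequence from RefSeq Release 6. A replicate peak matched an IDR peak by an overlap of at least 1 bp, taking the nearest summit. No peak was identical in any pair of replicates. The counting was tested on simulated data with summits planted at 200 genes. No test was made between groups, since there is 1 group. The alternatives tried were other windows, peak lists, overlaps and motif windows, and leaving out each replicate. Scripts ran under Python 3.11.15 with pandas 2.3.3, numpy 2.4.6 and matplotlib 3.10.9.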

Additional observations from a re-analysis of the deposited data

Results flagged for a closer look

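In 4 of 25 measures 1 replicate lay far from the rest. Chance alone would set a replicate apart in about 1 of 20 measures that vary smoothly, but in these 4 the remaining 3 replicates were equal, where any difference is enough. The nub window held 19 summits in replicate 4 and 14 in each other replicate, while its summits with q under 0.01 numbered 5 in replicate 4 and 7, 9 and 11 in replicates 1 to 3. hb and cas each had 1 summit in replicate 4 and 0 in the others. Kr had 0 summits in replicate 2 and 1 in each other replicate. Replicate 4 had the smallest share of peaks with q under 0.01, 23.2%, and the part of this in the counts was not tested.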

How the results depend on the processing

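nub and grh were the 2 genes with a summit in every window from the gene body alone to 10000 bp, among the 3954 highest-signal IDR peaks, with pooled q under 0.01 and without each replicate. Their 7 IDR summits became 4 among the 3954 highest-signal peaks, and 5 to 6 without 1 replicate. Without replicate 1 or 2, nub had 3. grh had 1 summit instead of 2 with the gene body only, within 2000 bp and among the 3954 peaks. The IDR filter was not rerun for this: IDR peaks were kept if the remaining 3 replicates each had 1 of their highest peaks there. By this rule 5503, 5421, 5339 and 5982 of all 7909 IDR peaks were kept without replicates 1 to 4 in turn. Mean replicate support of the 7 IDR peaks moved from 92.9% to 64.3% with a 50% reciprocal overlap. It was 90.5% to 95.2% without 1 replicate, and no share over all IDR peaks is given beside these. Genes with a pooled summit fell from 4 to 2 with q under 0.01 and to 2 with q under 0.05. The 11 of 30 other temporal genes became 6 with the gene body only, 7 within 2000 bp and 7 among the 3954 highest-signal peaks, where 18.1%, 42.0% and 39.9% of all genes had a summit. They became 7 to 8 without 1 replicate, where 43.9% to 46.1% of all genes kept one. The IDR summits of nub and grh with CTTATC rose from 1 to 4 within 200 bp, a setting chosen after seeing the data. The other settings run left the totals over the 7 genes, over their summits and over the other temporal genes within 1.5 times the main value, and the median rank of the strongest nub peak stayed at 34. No paired analysis was possible because there is 1 group. Depth is unknown, so a gene with no summit may still hold a weak site, and no test was made of any difference.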

Other observations

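A summit of any q-value was present at 17 of the 30 genes of the other temporal lists in each of replicates 1, 2 and 3 and at 27 in replicate 4. Of all protein-coding genes 76.9%, 74.0%, 75.4% and 89.8% had one in replicates 1 to 4, so the count in replicate 4 was near the share of all genes. At 10 of the 30 genes a summit was listed in replicate 4 and in none of the others. This was a larger share than the 11.9% of all genes, and the difference was not tested. Among the 10 were ap, which encodes a LIM homeodomain factor, and Syp, an RNA-binding protein of late larval neuroblasts. None of these 10 genes had a summit with q under 0.01 there, and the best rank among them was 10884. ey, a Pax6 gene of chromosome 4 chosen after its values were seen, had 16 summits in replicate 4 with 2 under that limit, 1 in replicate 3 that was under it, and 0 in replicates 1 and 2.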
